A study of Drosophila melanogaster with 4 samples.

Results

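The transcripts described here are the rows of the array table whose FlyBase transcript number lies from FBtr0082231, a transcript of sle, to FBtr0084138, a transcript of CG31178. These limits take in 1908 numbers, of which 1460 were on the array, out of 15634 rows in all. The block was chosen by number alone and not by expression. Levels were compared between 2 untreated *Drosophila melanogaster* cell lines, Mbn2 and Kc, with 2 arrays each. Mbn2 was started from larval blood cells carrying l(2)mbn, a tumour mutation, and was grown in M3 medium with BPYE and 10% fetal calf serum. Kc comes from embryos and was grown in the serum-free medium CCM3, so line and medium cannot be told apart. Each line is a culture kept over many passages, and whether the replicates were separate cultures is not stated, so p-values measure the spread between these arrays, which may be technical. Values are log2 RMA levels (robust multi-array average, a summary of all probes of a transcript), differences are Mbn2 minus Kc, and a call is an adjusted p under 0.05 in limma over all 15634 rows.

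The right arm of chromosome 3, 3R, carries a large share of the fly's genes. FlyBase gave many transcripts their numbers arm by arm, so neighbouring numbers often belong to neighbouring genes or to transcripts of the same gene. A gene table from RefSeq (assembly Release 6 plus ISO1 MT) paired 6 members with symbols, 4 with 1 symbol and 2 with several, and left 1454 unnamed here. All 6 were placed on 3R, and their numbers stood in the same order as the genes in all 5 steps. Over the 13 named 3R rows of the table the order matched in 12 of 12 steps, and on X in 2 of 2. On 2L, in contrast, it matched in 5 of 9 steps, on 2R in 1 of 9 and on 3L in 3 of 6. RefSeq lists 1687 genes on 3R from sle to CG31178, of which 1362 are protein-coding, so these counts do not settle whether some of the 1460 rows share a gene. Genes of this stretch with numbers outside the limits are not part of the block.

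As a whole the block differed between the lines about as often as the rest of the table. Of its 1460 members, 671 (46.0%) were called, against a background of 48.2% over all rows. In Mbn2, 266 members (18.2%, background 21.2%) were higher and 405 (27.7%, background 27.0%) were lower. At least 2-fold, 135 were higher in Mbn2 (9.25%, background 10.5%) and 153 lower (10.5%, background 10.2%). These shares are close to the background, and so is the median difference, at -0.05 over the members and -0.04 over all other rows. Without Kc replicate 1 the block's median was -0.097, and no value of the other rows without that array is given beside it. The median difference of all rows over 9 in both lines was -0.11, and measured from it 317 members were higher and 355 lower in Mbn2. Over the whole table the same measure gave 3950 higher and 3579 lower. Calls higher in Mbn2 thus made up 52.5% of the table's calls and 47.2% of the block's. The table's majority turned by this measure, while the block's did not. At least 2-fold, 152 members were then higher and 129 lower, so the block's 2-fold majority turned. The 2-fold counts of the whole table by this measure are not given here. The block's median level was 8.37 and 8.28 on the Mbn2 arrays, against 8.63 and 8.56 on the Kc arrays, so the arrays of the lines did not overlap. In all other rows the same medians were 8.60 on both Mbn2 arrays and 8.62 and 8.53 on the Kc arrays.

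**Figure D1:**
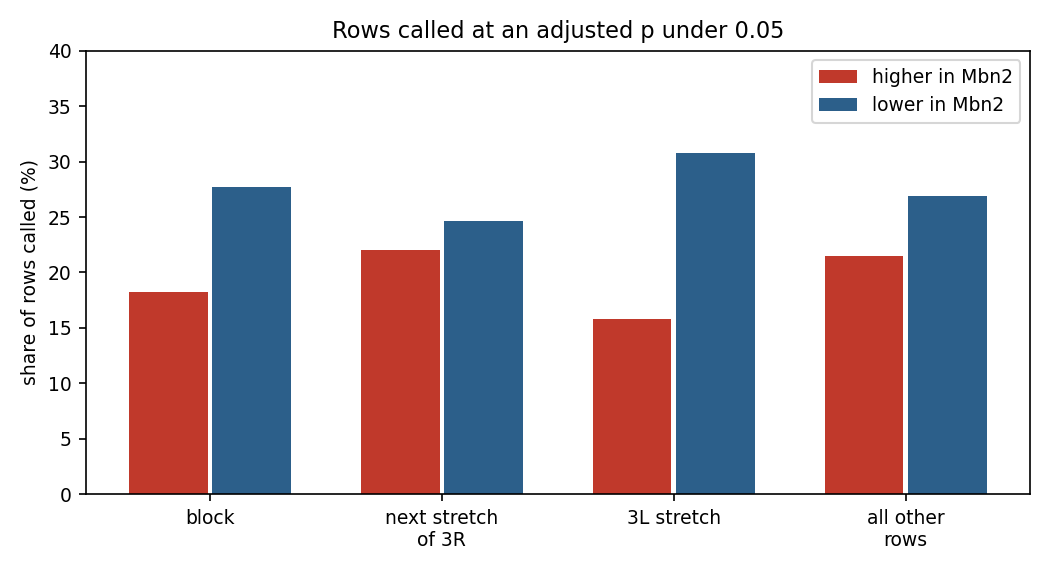
Share of rows (%) called higher (red) or lower (blue) in Mbn2 at an adjusted p under 0.05 in the block (1460 rows), the next stretch of 3R (1153 rows), a 3L stretch (1591 rows) and all rows outside the block (14174). Both stretches were taken by transcript number. In the block 18.2% were higher and 27.7% lower, close to 21.5% and 26.9% in all other rows.

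Beside other stretches of like length the block stood in between. Those stretches were taken by number, and the arm of their unnamed rows was not checked. The next 1153 rows, after CG31178 to CG7950 and here called the next stretch of 3R, had 22.0% higher and 24.6% lower in Mbn2. The 1591 rows from Mettl5 to LanA, here called the 3L stretch, had 15.8% higher and 30.8% lower. Their median level was 8.09 in Mbn2 and 8.48 in Kc, beside 8.30 and 8.62 in the block. A lower median level in Mbn2 is therefore not particular to the block. The next stretch of 3R went the other way, with 8.43 in Mbn2 and 8.23 in Kc. Among rows over 9 in both lines, the median difference was -0.12 in the block (612 members), -0.04 in the next stretch of 3R (492) and -0.24 in the 3L stretch (664), against -0.11 in all rows outside the block (6086). Rows of a stretch share the same 4 arrays and are not replicates, so these are descriptions without a test.

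The named members were ordered by what their products do, beginning with the nucleus. The gene sle (slender lobes, FBtr0082231) encodes a nucleolar protein known for its part in the structure of the nucleolus in the larval brain. Its levels were 13.15 and 13.28 in Mbn2, against 14.15 and 14.09 in Kc. The lines did not overlap, and sle was lower in Mbn2 by -0.91 (SE 0.11, adjusted p = 0.00128), a 1.88-fold difference. It was among the brightest members, above 94.2% of them in Mbn2 and 97.9% in Kc. The next row of the table, 2 numbers on, lay within 0.080 of sle on every array and was lower in Mbn2 by -0.92.

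His4r (FBtr0082962) encodes histone H4 from a gene outside the replication-dependent histone cluster, with polyadenylated transcripts. Its levels were 9.79 and 9.78 in Mbn2, against 9.26 and 8.90 in Kc. Both Mbn2 arrays were above both Kc arrays, and the difference was 0.70 (SE 0.15, adjusted p = 0.0103), 1.63-fold. The Mbn2 replicates were 0.0044 apart and the Kc replicates 0.36, and without moderation of the variances the adjusted p was 0.127. Whether its probes also bound transcripts of the clustered histone H4 genes was not tested.

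FBtr0083570 carries the reading frames of moi (modigliani), a protein of the telomere cap, and of Tgs1, the enzyme that hypermethylates the cap of small nuclear RNAs. A single array value cannot separate these frames. Its levels were 11.56 and 11.52 in Mbn2, against 11.74 and 11.60 in Kc, a gap of 0.04 between the closest arrays of the lines. The difference of -0.13 did not pass the test (95% interval -0.40 to 0.13, adjusted p = 0.368). It was the only named member without a call. None of the 20 members nearest to it, 10 on each side, was called higher in Mbn2 (background 21.2%), while 9 were called lower (45.0%, background 27.0%). Some of these 20 had close levels and may measure the same gene. The rows 5 to 2 places before it were at 15.17 to 15.28 in Mbn2 and 15.35 to 15.43 in Kc. Those 2 and 3 places after it were at 14.09 and 14.07 in Mbn2, against 14.56 and 14.51 in Kc.

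The roadkill gene rdx (FBtr0082871) encodes an adaptor of Cullin-3 ubiquitin ligases that directs the Hedgehog pathway's transcription factor Ci to degradation. Its levels were 13.08 and 13.21 in Mbn2, against 12.32 and 12.31 in Kc. With no overlap, rdx was higher in Mbn2 by 0.82 (SE 0.11, adjusted p = 0.00169), 1.77-fold. RefSeq lists 5 transcripts of rdx, and which of them the probes measure was not examined. The rows next to rdx went both ways. The row just before it was higher in Mbn2 by 2.67, the row just after was lower by -3.24, and the row after that was higher by 4.22.

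**Figure D2:**
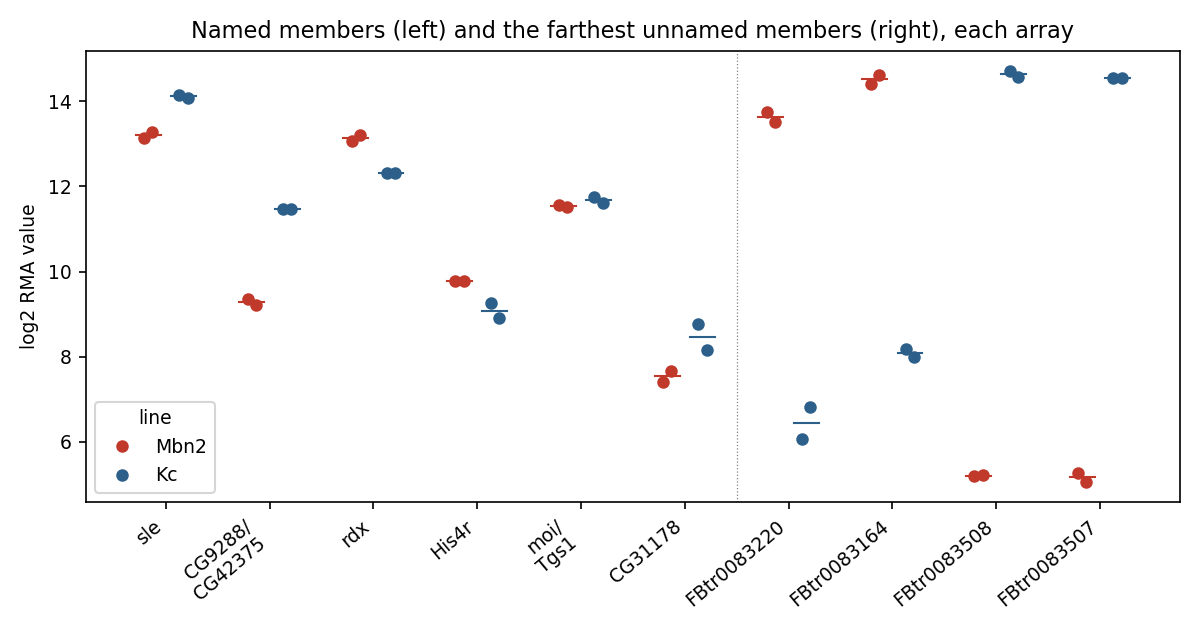
Log2 RMA value on each array for the 6 named members (left of the dotted line) and the 4 unnamed members with the largest differences (right), with Mbn2 in red at the left and Kc in blue at the right of each pair; a bar marks the mean of 2 arrays. The named members differ by -2.18 to 0.82, and the unnamed ones by 6.44 or more in either direction.

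FBtr0082829 carries the reading frames of CG9288 and CG42375, which one value again cannot separate. Its levels were 9.37 and 9.21 in Mbn2, against 11.48 and 11.46 in Kc. It had the largest difference of the named members, -2.18 (SE 0.11, adjusted p = 4.6e-05), or 4.53-fold lower in Mbn2. Of all members, 45 had a lower difference. It stood in a run of 5 neighbours that were all called lower in Mbn2, by -0.52 to -6.84, with the row just before it at 5.09 in Mbn2 and 11.93 in Kc. Of its 20 nearest members 2 were higher in Mbn2 (10.0%, background 21.2%) and 10 lower (50%, background 27.0%).

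CG31178 (FBtr0084138), the last member, had levels of 7.41 and 7.67 in Mbn2, against 8.78 and 8.17 in Kc. The lines did not overlap, and the difference was -0.94 (SE 0.22, adjusted p = 0.0171), 1.92-fold lower in Mbn2. The Kc replicates were 0.61 apart, more than the 0.50 between the nearest arrays of the lines, and the adjusted p was 0.0802 without Mbn2 replicate 1 and 0.194 without moderation of the variances. Of the 10 nearest members 1 was higher, 1 lower and 8 were not called, against a background of 48.2% called.

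Thus 2 of the 6 named members were higher in Mbn2, 3 were lower, and 1 was not called. They do not stand for the block, since the gene table happens to record these identifiers. Lists of Hedgehog (12 genes), non-cluster histone (5), nucleolar (8) and Hox genes (8) had 1, 1, 1 and 0 members identified in the whole table. None of 12 blood cell markers, 5 imaginal and neural, 3 muscle and 3 fat body markers was identified, so the labelled lines could not be checked against markers.

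The largest differences in the block belonged to unnamed members. FBtr0083508 was at 5.19 and 5.23 in Mbn2, against 14.70 and 14.58 in Kc, a difference of -9.43 (SE 0.11, adjusted p = 2.53e-06). The row before it, FBtr0083507, was at 5.27 and 5.07 in Mbn2, against 14.55 and 14.56 in Kc. These neighbours lay within 0.25 of each other on every array, and the table does not say whether they belong to the same gene. FBtr0083220 was at 13.75 and 13.52 in Mbn2, against 6.08 and 6.83 in Kc, a difference of 7.18 (SE 0.25, adjusted p = 1.31e-05). FBtr0083164 was at 14.41 and 14.62 in Mbn2, against 8.17 and 7.99 in Kc, a difference of 6.44 (SE 0.13). All 4 were separated by over 6 log2 units between the nearest arrays of the lines. The files give no background level, so for a line near the bottom of the scale only the gap between RMA values is known.

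Some members changed side between dim (line mean under 6) and bright (over 8). Bright in Mbn2 and dim in Kc were 30 members (2.05%, background 1.67%), with differences of 2.19 to 6.30 and a median of 4.32. Dim in Mbn2 and bright in Kc were 22 members (1.51%, background 1.23%), with differences of -2.75 to -9.43 and a median of -4.12. The limits themselves require a difference of over 2 log2 units, so that all 52 passed the test adds nothing. Members that switched stood partly side by side, as 13 of the 30 and 5 of the 22 had another of the same kind within 2 places. The same count is not given for the other rows, so such grouping is not shown to be particular to the block. Most members did not switch. In both lines, 702 were bright and 439 were dim, and 267 lay between the limits in at least 1 line.

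Among the 702 members bright in both lines, 140 (19.9%) were higher and 259 (36.9%) lower in Mbn2, where the whole table had 24.7% and 35.7%. Of the 439 dim in both, 21 were higher and 22 lower, 4.78% and 5.01%, and the table had 4.82% and 4.80%. Members over 14 in both lines numbered 22, of which 4 were higher in Mbn2 and 4 lower, 18.2% each, where all 243 such rows of the table had 16.5% and 16.0%. Calls under 2-fold made up 57.1% of the block's calls, against 57.2% in the table. Replicates were close, with a median gap of 0.13 in either line, and 6 members in Mbn2 and 9 in Kc had replicates more than 1 log2 unit apart.

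**Figure D3:**
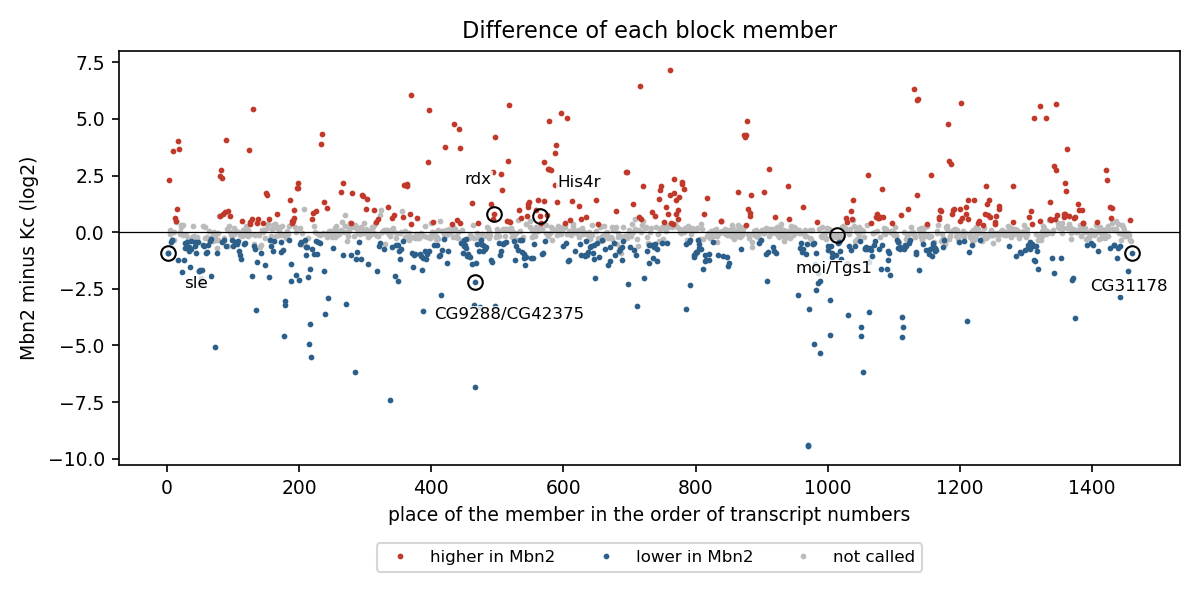
Difference (Mbn2 minus Kc, log2) of each of the 1460 members against its place in the order of transcript numbers, red where called higher in Mbn2, blue where called lower, grey where not called; circles mark the 6 named members. Differences run from -9.43 to 7.18, and large ones are spread unevenly along the block. At places 851 to 900, for instance, 7 of 50 members were called at least 2-fold higher in Mbn2 (background 10.5%). At least 2-fold lower were 0 (background 10.2%). Of these 50 members 25 were dim (under 6) in both lines, and like windows elsewhere were not counted.

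The named members divide the block into stretches of unequal length, read here against the background of 21.2% higher and 27.0% lower in Mbn2. From sle up to CG9288 (466 members), 78 were higher and 153 lower in Mbn2, 16.7% and 32.8%, with a median of -0.12. From CG9288 up to rdx (28 members), 4 were higher and 14 lower, 14.3% and 50%, with a median of -0.32. From rdx up to His4r (70 members), 16 were higher and 21 lower, 22.9% and 30%, with a median of 0.03. From His4r to CG31178 (896 members), 168 were higher and 217 lower, 18.8% and 24.2%, with a median of -0.04, and these shares lie near the background. Measured from the median of all rows over 9 in both lines, these medians were -0.01, -0.20, 0.14 and 0.08, so the sign in the last stretch turned. The stretches hold members of all levels, however, and the median over all rows of any level was nearer 0, at -0.05. The shift is therefore larger than one from rows of like levels.

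The first and last stretches also differed among members over 9 in both lines. From sle up to CG9288, 35 of 189 such members were higher and 85 were lower in Mbn2, 18.5% and 45.0%, against a background of 24.3% and 34.9%. From His4r to CG31178, 88 of 389 were higher and 107 lower, 22.6% and 27.5%. Their medians were -0.25 and -0.04, or -0.14 and 0.07 measured from all rows over 9. The short stretches between them held 12 and 22 such members, with medians of -0.65 and -0.40. Over the 4 possible pairs of a Mbn2 array with a Kc array, the median of the first stretch ran from -0.29 to -0.23 and that of the last from -0.09 to -0.03, so no choice of arrays made these stretches overlap. The difference between stretches has no test, since members are not replicates.

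Windows of 50 consecutive members gave a finer view. The 29 windows had medians from -0.32 to 0.20, with an SD of 0.13. The 283 windows of all other rows had an SD of 0.19, but they pool many stretches. No stretch of like length was given its own SD, so less variation in the block is not shown. The window medians of the replicate difference had an SD of 0.04 in Mbn2 and 0.05 in Kc. The largest such replicate median in the block was 0.13. Beyond this size, 10 of 29 windows (34.5%) lay below 0 and 3 (10.3%) above, close to 93 (32.9%) and 34 (12.0%) of the 283 windows of all other rows. More members were lower than higher in Mbn2 in 21 windows (72.4%, against 59.4% of windows elsewhere), and the reverse held in 8 (27.6%, against 99 of 283 elsewhere). Measured from the median of all rows over 9, the lowest and highest medians were -0.20 and 0.31. The lowest window was the first, from sle to place 50, with 24 members lower and 7 higher in Mbn2. The highest was at places 751 to 800, with 17 higher and 9 lower. Neither is particular to the block. In the rest of the table the window medians ran from -0.69 to 0.73, of which 21 were as low as the lowest window here and 22 as high as the highest.

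**Figure D4:**
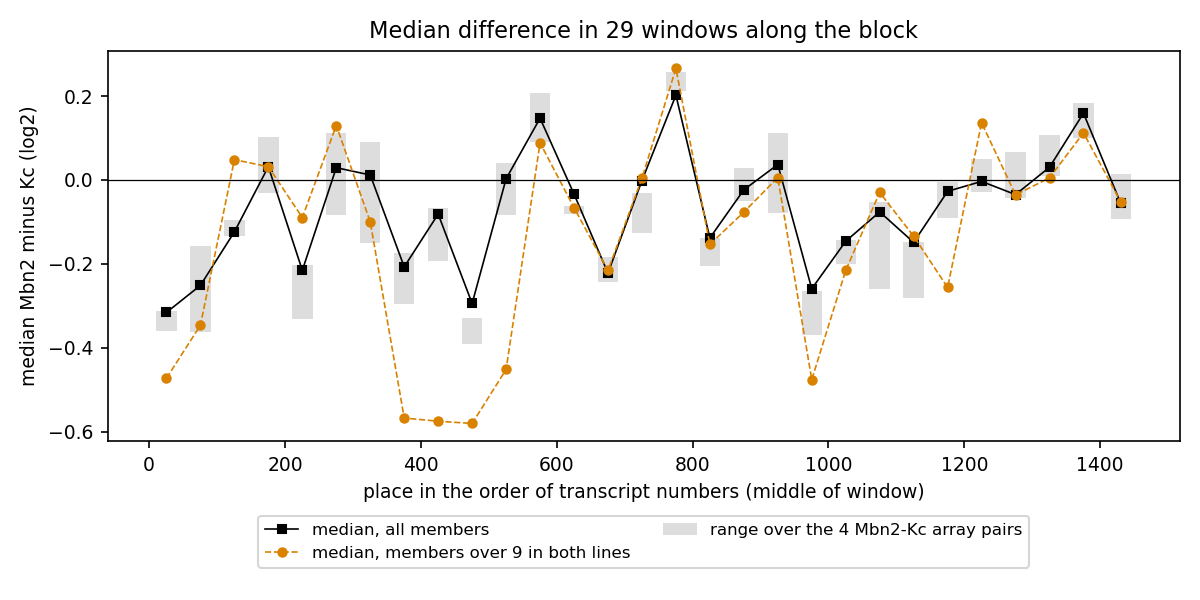
Median difference (Mbn2 minus Kc, log2) in 29 windows of 50 members (60 in the last) along the block, for all members (black squares) and for members over 9 in both lines (orange circles). Grey bars span the medians of the 4 pairs of a Mbn2 array with a Kc array, which need not enclose the median of the mean difference; the orange line is lowest at places 351 to 550.

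The deepest stretch in members over 9 in both lines lay at places 351 to 550, around CG9288 and rdx, and was picked out after the windows were seen. Its 4 windows had medians of -0.57, -0.58, -0.58 and -0.45, from 20, 12, 18 and 15 members. Together these 65 members had a median of -0.52, between -0.56 and -0.44 over the array pairs, and -0.41 measured from all rows over 9. Of them 42 (64.6%) were lower in Mbn2 and 11 (16.9%) higher, against a background of 34.9% and 24.3% for rows over 9. Single windows of such depth are not particular to the block. Windows elsewhere had medians over rows over 9 from -0.88 to 1.06, and 9 of them were at or below the block's lowest of -0.58. Stretches of 4 successive windows were not measured elsewhere, so whether such a stretch occurs there is not known. Among the 65 members the medians of the replicate differences were 0.01 in both lines. rdx itself is one of the 11 that were higher.

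Calls of the same direction came in runs. The longest run of members lower in Mbn2 had 9 members, at places 448 to 456, with differences of -0.32 to -1.06 and levels in Mbn2 of 8.11 to 13.38. The next, at places 47 to 54, had 8 members with differences of -0.45 to -2.25. The longest runs higher in Mbn2 had 6 members. In the run at places 874 to 879 the median difference was 4.26, and its first 3 members were bright in Mbn2 (9.89 to 10.15) and dim in Kc (5.59 to 5.94). In the run at places 1357 to 1362 the median was 1.31. Runs of at least 4 numbered 7 higher and 18 lower in the block, or 4.79 and 12.3 per 1000 rows. All other rows held 155 higher and 206 lower, or 10.9 and 14.5 per 1000 rows, so runs of either direction were not more frequent in the block. The longest runs there had 14 members higher and 12 lower.

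Places 951 to 1000 held 6 of the 22 members dim in Mbn2 and bright in Kc, including FBtr0083507 and FBtr0083508. No window of the other rows held more than 5. Without FBtr0083507, which matches its neighbour, this window holds 5, but matching neighbours were not taken out of the windows elsewhere. Of its 50 members 2 (4.0%, background 21.2%) were higher in Mbn2 and 21 (42.0%, background 27.0%) lower. Elsewhere 39 of 283 windows held 21 or more lower members, with up to 30. Its 18 members over 9 in both lines had a median of -0.48.

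Neighbours resembled each other over short distances. The differences of adjacent members correlated at r = 0.28 (1459 pairs), at 0.13 for members 2 places apart, at 0.06 for 5 and 10 places, at -0.03 for 25 and at 0.03 for 100. In all other rows the values were 0.31, 0.15, 0.06, 0.04, 0.03 and 0.00. These points share the same 4 arrays and give no p. Where adjacent members were both called, 273 of 376 pairs (72.6%) had the same direction, against 158 of 295 (53.6%) for members 100 places apart. In all other rows these shares were 74.8% and 53.8%, close to the block's. Adjacent members over 9 in both lines had near-identical values (within 0.25 on all 4 arrays) in 31 of 340 pairs (9.12%), against 6 of 233 pairs (2.58%) at 100 places, so some neighbouring rows may measure the same gene. Without near-identical pairs of any level, 78 in all, r between adjacent members was 0.25.

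**Figure D5:**
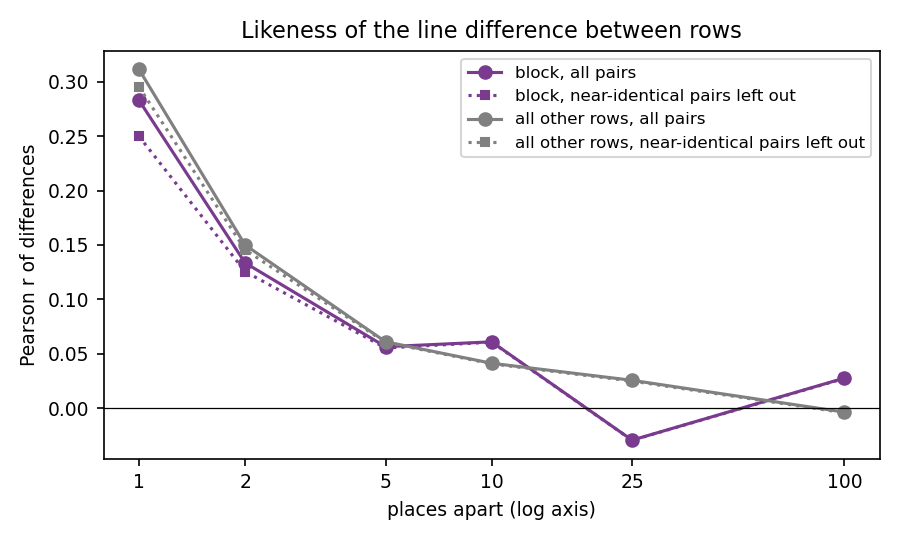
Pearson correlation of the line difference (Mbn2 minus Kc) between rows a given number of places apart (log axis), in the block (purple) and in all other rows (grey), with all pairs (solid) and without near-identical pairs (dotted). In the block r is 0.28 for adjacent members and 0.06 at 5 places, close to 0.31 and 0.06 in all other rows.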

How the data were processed

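The deposited table holds log2 values that the authors made with RMA, per the submitters' processing notes. For version, settings, annotation release and build: not given in the sources used here. Per the series' design text, 15634 genes are on each array in duplicate, with 12 probes of 60 bases per gene. The table has no detection call, and having only 4 arrays limits precision. Groups came from the sample titles.

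A linear model without covariates was fitted to all 4 samples in limma (version 3.58.1, under R 4.3.3) and moderated with eBayes, with two-sided tests and Benjamini-Hochberg adjustment over all 15634 rows. The fit was tested on simulated data. Medians, windows, runs and correlations are descriptions. Replicate numbers did not pair the samples (r = -0.05). Every member with a symbol is named, and up to 2 unnamed members per direction with the largest difference. The rule for which members to show, the lists and the limits of dim and bright were chosen with earlier results of these data known. Membership of the block was set by transcript number alone. The lists are those whose counts the report gives. Alternatives were no moderation, an intensity trend, a replicate block, a second quantile normalization, centring on rows over 9 in both lines, a filter on low levels, other thresholds, limits and window sizes, and leaving out each sample. Counting near-identical neighbours once was added after the data were seen. No sequences are shown.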

Additional observations from a re-analysis of the deposited data

How the results depend on the processing

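The direction of all 5 named calls, and of the 4 unnamed members shown, held under every alternative run. Of 109 alternative values of these and of the moi/Tgs1 transcript, 104 kept their side of the threshold and 5 lost the call. These were His4r and CG31178 at a threshold of 0.01 and without moderation of the variances, and CG31178 without Mbn2 replicate 1. This adds little support, since most settings leave a difference as it is. CG31178 has no value in the fit without rows below the median level.

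The counts from here on are of block members only, without the whole table's counts under the same settings. Whether the block moved apart from the table is therefore not shown. Without moderation, 137 members were higher and 233 lower in Mbn2, and 89 were at least 2-fold higher. With rows below the median level left out, 60 were at least 2-fold higher and 75 lower, since that fit holds fewer rows, and the median difference was -0.14. Centring on rows over 9 in both lines, which subtracts -0.11 from every difference, gave a block median of 0.057, a median of -0.0079 for members over 9, and window medians from -0.20 to 0.31. Windows of 25 members ran from -0.57 to 0.41, and windows of 100 reached 0.14. Limits of 5.5 and 9 left 8 members that switched towards Mbn2 and 10 that switched towards Kc.

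Leaving out 1 sample, with the remaining sample of that line taken to vary as the other line does, gave 215 to 241 members higher in Mbn2 and 316 to 378 lower, with 132 to 143 and 140 to 171 at least 2-fold. The block median then ran from -0.097, without Kc replicate 1, to -0.032, that of members over 9 from -0.14 to -0.11, the lowest window from -0.38 to -0.31 and the highest from 0.17 to 0.24. The members that switched numbered 29 to 31 and 22 to 24. With a replicate block 259 members were higher and 383 lower in Mbn2, and no named call changed. Replicate numbers did not pair the samples (r = -0.05). Counting near-identical neighbours once, chosen after seeing the data, left 257 higher and 391 lower. Unless named here, counts stayed within 1.5 times. The unknown background limits what dim members can show.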
